A study of Homo sapiens with 12 samples.

Results

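The BCL2 family decides whether the outer mitochondrial membrane is opened during apoptosis, and 10 of its genes were followed here through depletion of PACT in triple-negative breast cancer cells. They were taken by gene name from a deposited table of read counts: BBC3 (encoding PUMA), PMAIP1 (NOXA), BCL2L11 (BIM), BIK, BID, BAX, BAK1, BCL2, BCL2L1 (BCL-XL) and MCL1. All 10 were found among the 57500 genes of the table, and all 10 were among the 27029 genes with enough counts to be tested. In HCC1806 cells, BBC3 and PMAIP1 rose after depletion and the other 8 did not pass the test; in MDA-MB-468 cells none of the 10 passed.

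HCC1806 and MDA-MB-468 are established lines derived from triple-negative breast cancers, which lack HER2 amplification and the receptors for estrogen and progesterone. PRKRA encodes PACT, which binds double-stranded RNA, and the study's title names it as a suppressor of the RNA-activated kinase PKR. The 4 groups of 3 libraries were HCC1806 with control guide sgC1, HCC1806 with guide sgPACT-2 against PRKRA, MDA-MB-468 with control guide sgNTA, and MDA-MB-468 with sgPACT-2. All groups were CRISPR-Cas9 cultures without a further treatment named in the labels, and total RNA was sequenced after removal of rRNA. The control guide differed between the lines, 1 guide stood for the depletion, and neither clonality nor the time after guide delivery was given. Nothing in the labels says whether replicates came from separate cultures, so that p-values measure the spread between these libraries, which may be technical.

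The HCC1806 libraries held 18640633 to 24704877 counts, and those of MDA-MB-468 held 34581754 to 44790741. Expression is given as TMM-scaled CPM, a library's counts rescaled to a common total, differences as log2 fold changes with their standard error (SE), and p-values come from edgeR's quasi-likelihood test with Benjamini-Hochberg adjustment over all genes tested. A gene passed when its adjusted p was under 0.05. In HCC1806 the targeted gene PRKRA fell, with means of 77.8 CPM in controls and 36.9 CPM after depletion (-1.07, SE 0.10, adjusted p = 1.7e-05). In MDA-MB-468 it was at 44.7 and 38.8 CPM and did not pass (-0.20, SE 0.10, adjusted p = 0.958), so the libraries labelled sgPACT-2 in that line are not shown to be depleted at the level of RNA; RNA does not measure PACT protein. Epithelial markers summed to 844.8 to 2315.0 CPM and basal markers to 1402.4 to 11910.2 CPM over the 12 libraries, and the 5 leukocyte markers to 1.37 to 2.59 CPM in HCC1806 and 77.0 to 106.5 CPM in MDA-MB-468. Of these, CD3E and LYZ had at most 3 counts in every library, while CD14 held nearly all of the MDA-MB-468 sum (means of 98.7 CPM in controls and 78.6 CPM with sgPACT-2). Among the receptor genes, PGR had at most 3 counts in every control library. ESR1 was read at means of 20.9 CPM in HCC1806 controls and 6.67 CPM in MDA-MB-468 controls, and ERBB2 at 194.2 and 139.8 CPM. Receptor protein was not measured. Of the fibroblast markers, COL1A1 was read at means of 33.4 and 19.8 CPM in the same controls. The means were 0.279 and 0.0 CPM for COL1A2, 0.104 and 0.0203 CPM for COL3A1, and 0.0746 and 0.0 CPM for DCN. COL1A2, COL3A1, DCN and LUM had at most 3 counts in every MDA-MB-468 control library. The basal sum was lower after depletion in HCC1806 (1402.4 to 1503.3 CPM against 1876.6 to 2088.1). KRT5 (means of 766.6 and 405.7 CPM) and EGFR (1113.3 and 964.3) were lower, KRT14 overlapped, and KRT17 was higher (19.5 and 27.8). The epithelial markers EPCAM (-0.55, adjusted p = 0.0335) and CDH1 (-0.38, adjusted p = 0.0373) also passed as lower, while KRT8 and KRT18 did not pass. The part of these shifts in the results below was not tested. On the first principal component of HCC1806, which carried 40.1% of the variance, replicate 1 of both guides lay on one side (depleted -37.2, control -26.4) and depleted replicate 3 on the other (33.9). In bulk RNA, fewer cells with a transcript and less transcript per cell cannot be told apart.

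Members of the BCL2 family act on one another by binding. BAX and BAK1 are the effectors that form pores in the outer mitochondrial membrane and release cytochrome c. BCL2, BCL2L1 and MCL1 are survival proteins that hold the effectors and their activators, and BH3-only proteins such as PUMA, NOXA, BIM, BIK and BID either occupy the survival proteins or activate the effectors. Many BH3-only genes are controlled by transcription, BBC3 and PMAIP1 being textbook targets of stress-activated factors, whereas BAX, BAK1 and BID are largely controlled as proteins.

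The promoters of BBC3 and PMAIP1 are shown because these were the members that passed in HCC1806. Both come from RefSeq (GRCh38.p14), 5′ to 3′ on the strand of the gene, and run from 250 bases before the RefSeq start to the last base before any annotated exon. BBC3 (chr19:47232767-47232917, minus strand) had 151 such bases, of which 49.0% were G or C, and PMAIP1 (chr18:59899746-59899947, plus strand) had 202, of which 76.2% were G or C. Capitals mark a match to a searched motif.
BBC3: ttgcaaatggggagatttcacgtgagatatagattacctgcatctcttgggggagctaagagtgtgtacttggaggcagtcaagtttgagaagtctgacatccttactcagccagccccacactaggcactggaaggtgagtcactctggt
PMAIP1: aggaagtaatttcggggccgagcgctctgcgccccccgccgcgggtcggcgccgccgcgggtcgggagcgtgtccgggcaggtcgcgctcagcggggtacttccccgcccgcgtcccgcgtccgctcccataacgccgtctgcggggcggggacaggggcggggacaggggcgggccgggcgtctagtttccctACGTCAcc

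The 4 motifs were searched on both strands in the 250 bases before each start, without overlap between motifs being removed: ACGTCA (the core of the cAMP response element), TGATGNAA (the composite element of CEBP and ATF factors), TGTTTAC (forkhead) and the NF-kappaB consensus, by name. ACGTCA was found in the PMAIP1 window, 56 bases before the start, and in 7.1% of 35116 promoter windows of the same length. BBC3 held none of the 4 in its window, which does not cover another annotated start of the gene. TGTTTAC matched before BCL2L11 (2.98% of windows), while TGATGNAA (3.14% of windows) and the NF-kappaB consensus (9.96%) matched no member. Promoter sequences were matched for 8 of the 10 members; MCL1 and BIK had no entry. The matches are letters in a window, and no binding was measured here.

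In HCC1806, depletion of PACT was accompanied by higher RNA of the BH3-only genes BBC3 and PMAIP1, 2 of the 10 members, and no member passed in the other direction. Over all genes tested, 2.49% passed in this comparison, with 1.16% higher and 1.32% lower. The median log2 fold change of the 10 members was 0.17, beside 0.008 over all genes tested, and 7 of 10 were above 0. At an unadjusted p under 0.05, 4 of the 10 passed (BBC3, PMAIP1 and MCL1 higher, BID lower), beside 14.5% of all genes.

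BBC3 (ENSG00000105327, chromosome 19, 47220822 to 47232766, minus strand, GRCh38) encodes PUMA, which binds all of the survival proteins. Its level was 2.88, 3.98 and 5.59 CPM in control replicates 1 to 3 and 9.90, 10.9 and 12.8 CPM in depleted replicates 1 to 3 of HCC1806. Every depleted library was above every control library, as for 8.51% of all genes tested, although the gene was read from only 69 to 132 counts in controls and 202 to 382 after depletion. The mean went from 4.15 ± 1.36 to 11.2 ± 1.45 CPM (SD, n = 3), a 2.7-fold rise (1.43 on the log2 scale, SE 0.23, edgeR adjusted p = 0.00275). The BBC3 exons overlap 2 microRNA genes, MIR3190 on the opposite strand and MIR3191 on the same strand, and the strand setting of the counting is not given in the sources used here.

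PMAIP1 (ENSG00000141682, chromosome 18, 59899948 to 59904306, plus strand) encodes NOXA, which binds MCL1 and promotes its degradation. Its level was 4.54, 5.28 and 3.77 CPM in the HCC1806 controls and 9.55, 9.10 and 8.68 CPM after depletion. The depleted libraries lay close together and all above the controls. The mean rose from 4.53 ± 0.756 to 9.11 ± 0.437 CPM (SD, n = 3), a 2.01-fold difference (log2 1.01, SE 0.16, adjusted p = 0.0031). These values rest on 89 to 118 counts in controls and 195 to 260 after depletion.

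Both calls held whichever library was omitted, with BBC3 between 1.22 and 1.70 and PMAIP1 between 0.89 and 1.13, but that of PMAIP1 was lost in a fit of this line alone. With HCC1806 fitted alone its log2 fold change was 1.02 and its adjusted p 0.0667, whereas BBC3 stayed under the threshold at 1.45 (adjusted p = 0.0469). HCC1806 libraries varied more than those of MDA-MB-468, with a biological coefficient of variation of 0.204 against 0.0936 when each line was fitted alone. With both lines fitted together it was 0.171. Each of these values is a summary over all genes tested.

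**Figure D1:**
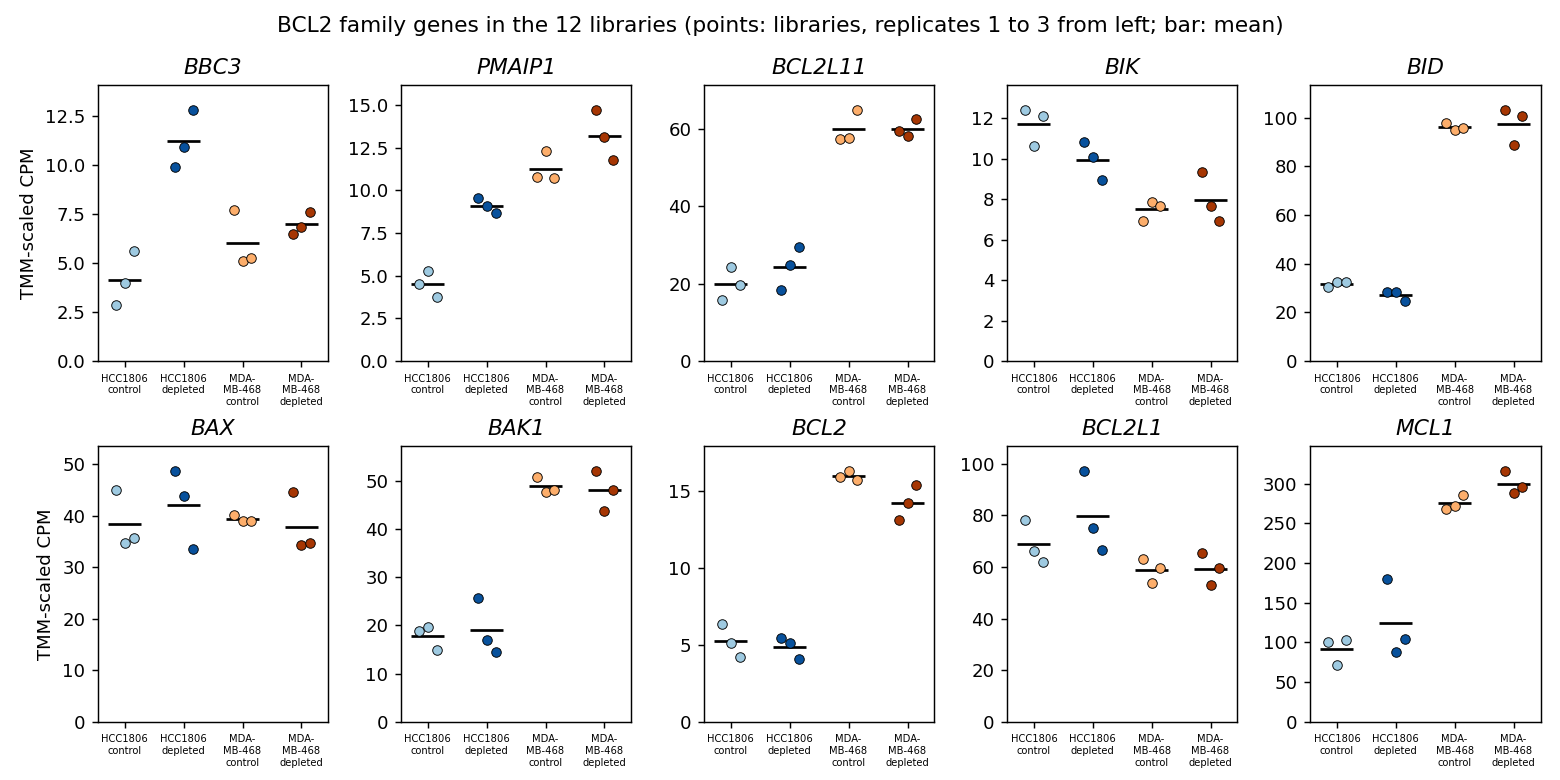
TMM-scaled CPM (vertical axes, from 0, on a separate scale for each gene) of the 10 members in the 12 libraries, grouped by line and guide, with replicates 1 to 3 from left to right and a bar at the mean. In HCC1806 the depleted points of BBC3 (9.90 to 12.8 CPM) and PMAIP1 (8.68 to 9.55 CPM) lie above all control points, while MCL1, BAK1 and BCL2L1 have 1 high depleted library, replicate 1.

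Among the members, the other BH3-only genes, BCL2L11, BID and BIK, did not pass in HCC1806. BCL2L11 (ENSG00000153094, chromosome 2, 111119378 to 111168447, plus strand) encodes BIM, a potent direct activator of BAX and BAK1. It was at 15.9, 24.3 and 19.8 CPM in controls and 18.5, 24.8 and 29.4 CPM after depletion, so that the groups overlapped (log2 fold change 0.28, SE 0.16, adjusted p = 0.458). The exons of BCL2L11 overlap MIR4435-2HG on the opposite strand, and counts per gene do not separate the splice forms of BIM.

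BID (ENSG00000015475, chromosome 22, 17734138 to 17774770, minus strand) is cleaved by caspase 8 and carries the death receptor signal to mitochondria. It was at 30.5, 32.3 and 32.4 CPM in HCC1806 controls and 28.2, 28.5 and 24.6 CPM after depletion. All depleted libraries were below all controls, as for 8.17% of all genes tested, but the difference did not pass (-0.23, SE 0.10, adjusted p = 0.295). BIK (ENSG00000100290, chromosome 22, 43110748 to 43129712, plus strand), a BH3-only protein of the endoplasmic reticulum, was at 12.4, 10.6 and 12.1 CPM against 10.8, 10.1 and 8.95 CPM. Its groups overlapped in 1 library each (log2 fold change -0.24, adjusted p = 0.55).

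Neither effector gene passed. BAX (ENSG00000087088, chromosome 19, 48954815 to 48961798, plus strand) was at 45.0, 34.7 and 35.7 CPM in HCC1806 controls and 48.7, 43.8 and 33.6 CPM after depletion (0.13, SE 0.15, adjusted p = 0.796). BAK1 (ENSG00000030110, chromosome 6, 33572547 to 33580293, minus strand) was at 18.9, 19.6 and 15.0 CPM in controls and 25.7, 16.9 and 14.5 CPM after depletion (0.09, SE 0.17, adjusted p = 0.897). Both groups overlapped for both genes, and the highest BAK1 value was that of depleted replicate 1, without which the log2 fold change was -0.19. BAK1 counts are uncertain because its exons overlap GGNBP1 on the opposite strand and near-identical pseudogenes, BAK1P1 and BAK1P2, exist.

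Of the survival genes, MCL1 and BCL2L1 were highest in that same library. MCL1 (ENSG00000143384, chromosome 1, 150574551 to 150579738, minus strand), a short-lived survival protein and the main partner of NOXA, was at 100.9, 71.9 and 103.4 CPM in controls and 179.4, 87.6 and 104.8 CPM after depletion. Depleted replicate 1 stood far above the control range and depleted replicate 3 just above it, and the log2 estimate of 0.43 (SE 0.19, adjusted p = 0.315) became 0.06 without it (adjusted p = 0.894). With no filter on low counts MCL1 passed (0.42, adjusted p = 0.0157). MCL1 exons overlap ADAMTSL4-AS1.

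BCL2L1 (ENSG00000171552, chromosome 20, 31664452 to 31723989, minus strand), whose main product BCL-XL guards BAX and BAK1, was at 78.1, 66.2 and 61.9 CPM in controls and 97.2, 75.0 and 66.7 CPM after depletion. Again depleted replicate 1 was highest and the groups overlapped (0.21, SE 0.14, adjusted p = 0.542; 0.04 without that library). Set against the control of the same replicate number, each depleted library was higher for MCL1 and for BCL2L1, and with the replicate block the adjusted p was 0.0517 for MCL1 (0.38) and 0.189 for BCL2L1 (0.20). What a replicate number shares is not given in the labels. BCL2L1 overlaps ABALON on the opposite strand, and its long survival and short death-promoting splice forms are counted as 1 gene. BCL2 (ENSG00000171791, chromosome 18, 63123346 to 63320128, minus strand), the founding survival protein, was low, at 6.34, 5.10 and 4.24 CPM in controls and 5.44, 5.11 and 4.07 CPM after depletion (-0.11, SE 0.17, adjusted p = 0.871). Its groups overlapped.

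Levels of different genes were compared per kilobase of annotated exon (CPM per kb), since longer transcripts give more counts. In HCC1806 controls the order from high to low was MCL1, BCL2L1, BAX, BIK, BAK1, BID, BCL2L11, PMAIP1, BBC3 and BCL2. MCL1 at 21.1 ± 4.01 CPM per kb and BCL2L1 at 20.7 ± 2.52 were not separated by their libraries, nor were BAK1 at 8.05 ± 1.13 and BID at 7.13 ± 0.242. PMAIP1 at 2.03 ± 0.338 and BBC3 at 1.31 ± 0.429 likewise overlapped (SD, n = 3 for all). Of the 10 members, those that rose were thus the lowest apart from BCL2, at 0.444 ± 0.0898 CPM per kb.

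After depletion PMAIP1 reached 4.08 ± 0.195 CPM per kb and BBC3 3.52 ± 0.455, beside 3.64 ± 0.819 for BCL2L11. The ranges of these 3 genes overlapped, so their order was not resolved, whereas before depletion BCL2L11 at 3.0 ± 0.629 was above both. MCL1 stayed highest at 28.3 ± 11.2 CPM per kb and BCL2L1 followed at 24.0 ± 4.76, both with the wide spread brought by replicate 1. The exon length of all annotated transcripts was used, so these levels shift if a cell uses only a short form.

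**Figure D2:**
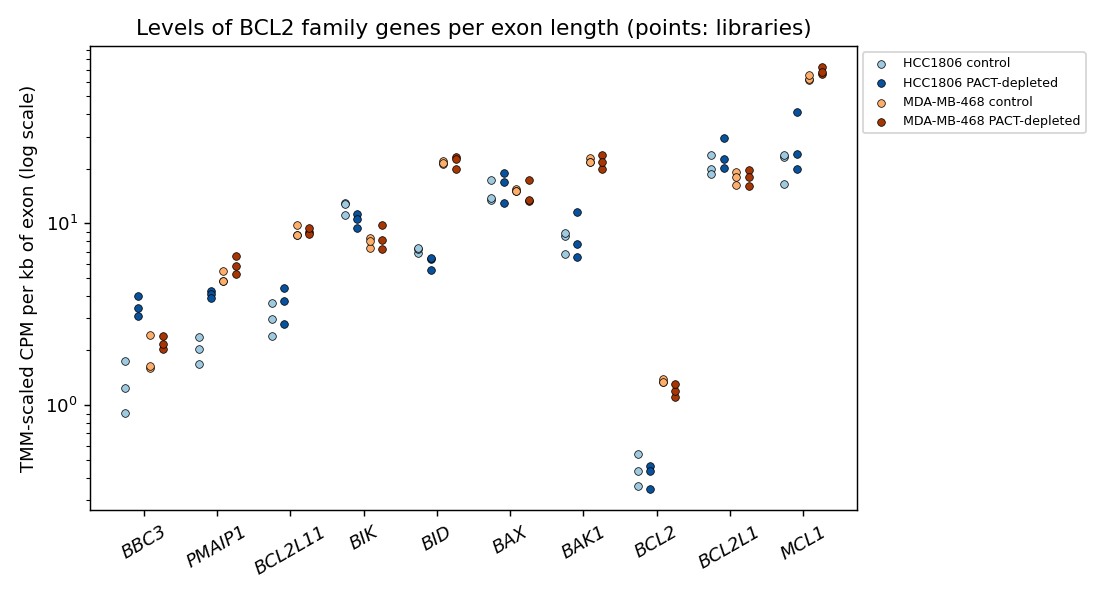
Level of each member in TMM-scaled CPM per kb of exon (log axis) in the 4 groups, with 1 point for each library. MCL1 has the highest mean in every group, overlapping BCL2L1 in HCC1806, and the means of BBC3 and PMAIP1 in HCC1806 go from 1.31 and 2.03 in controls to 3.52 and 4.08 after depletion, up to the level of BCL2L11.

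Summed over the 5 BH3-only members, the level in HCC1806 was 25.2, 25.6 and 26.4 CPM per kb in controls and 27.8, 28.2 and 27.2 after depletion. The sum was thus a little higher in each depleted library, at 27.8 ± 0.513 against 25.7 ± 0.604 (SD, n = 3). Its make-up differed more: BBC3 and PMAIP1 together gave 11.7%, 14.1% and 13.0% of it in controls and 26.6%, 26.6% and 29.0% after depletion, while BIK and BID, with negative estimates, made up less. This share restates the values of BBC3 and PMAIP1 and has no test of its own. The 3 survival genes summed to 42.2 ± 5.19 CPM per kb in controls, and to 70.8, 43.1 and 44.4 in depleted replicates 1 to 3, so that only replicate 1 was clearly higher. BAX and BAK1 summed to 22.9 ± 2.76 and 24.8 ± 5.47.

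**Figure D3:**
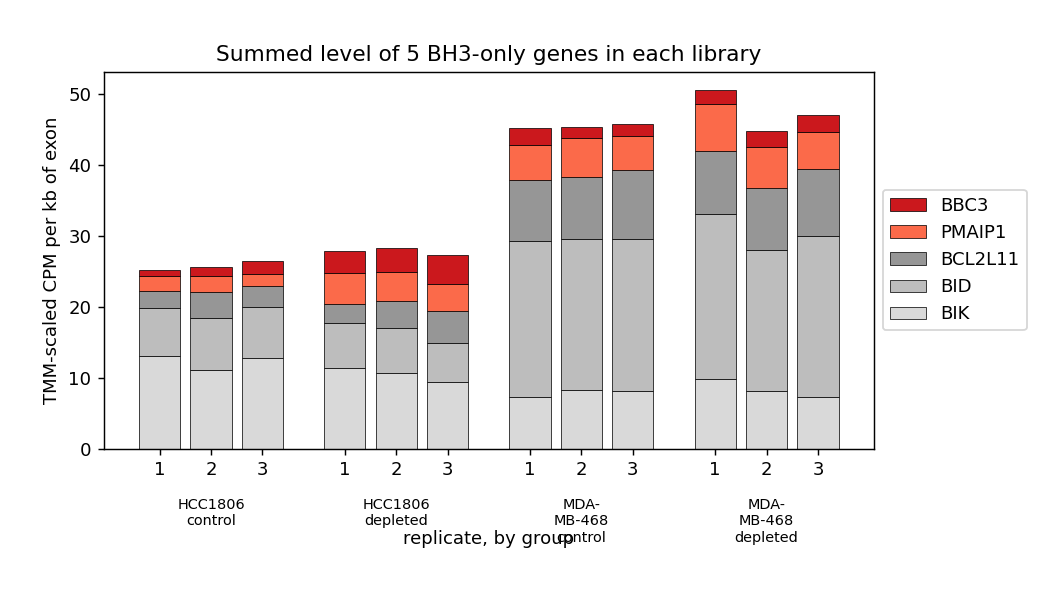
Stacked bars of the summed level of 5 BH3-only genes in each of the 12 libraries, in TMM-scaled CPM per kb of exon from 0. The red parts, BBC3 and PMAIP1, are 26.6% to 29.0% of the bar in depleted HCC1806 and 11.7% to 17.9% in the other 9 libraries.

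In MDA-MB-468, none of the 10 members passed with the PRKRA guide, where 0.17% of all genes tested did (0.17% higher). With DESeq2, and with edgeR on this line alone, the count was also 0, and none reached an unadjusted p under 0.05, which 5.27% of all genes did. The members' median log2 fold change was 0.02, beside -0.005 over all genes. Because PRKRA itself did not pass in this line, the comparison is one of guides.

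BBC3 in MDA-MB-468 was at 7.69, 5.11 and 5.24 CPM in controls and 6.50, 6.86 and 7.60 CPM with sgPACT-2. The highest library was a control, and the log2 estimate of 0.22 (SE 0.22) was no larger than its error (adjusted p = 1.0). PMAIP1 was at 10.8, 12.3 and 10.7 CPM in controls and 14.7, 13.1 and 11.8 CPM with the guide (0.23, SE 0.15, adjusted p = 1.0). Its groups overlapped only between the highest control and the lowest library with sgPACT-2.

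MCL1 was the member whose libraries were all higher in MDA-MB-468, with 267.5, 272.4 and 285.7 CPM in controls and 316.2, 288.7 and 295.3 CPM with sgPACT-2. BCL2 was the member whose libraries were all lower, at 15.9, 16.3 and 15.7 CPM against 13.1, 14.2 and 15.4. Over all genes tested, the groups did not overlap in 13.1% (6.2% higher, 6.94% lower), and neither MCL1 (0.12, SE 0.19) nor BCL2 (-0.17, SE 0.16) passed (adjusted p = 1.0 for both). The remaining 6 had log2 fold changes between -0.06 and 0.09, with group means of 60.0 and 60.1 CPM for BCL2L11, 96.1 and 97.5 CPM for BID, and 39.3 and 37.8 CPM for BAX.

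**Figure D4:**
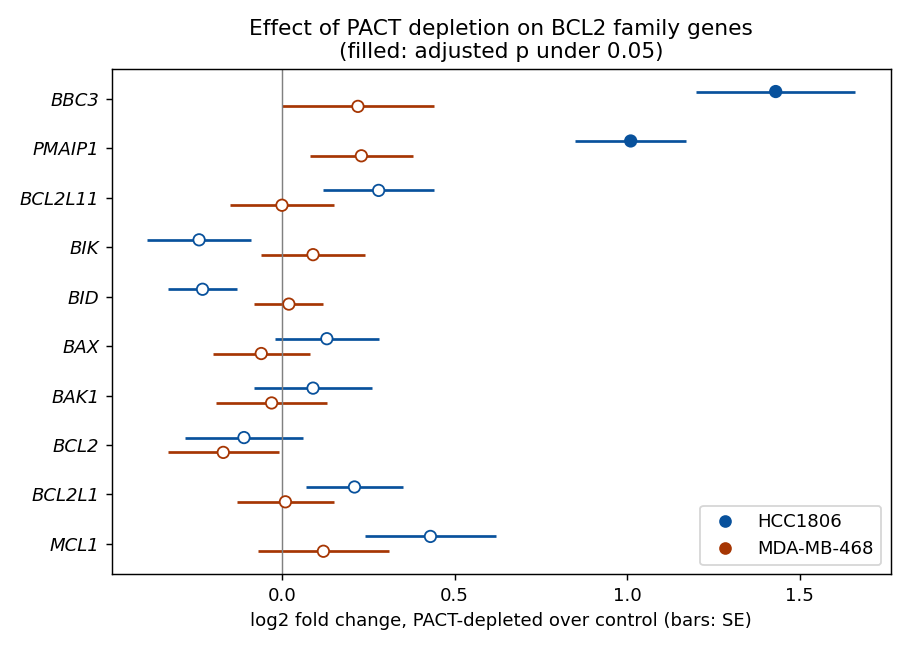
Log2 fold change of each member, sgPACT-2 against control guide, for each of the 2 lines, with bars of 1 SE and filled points for an adjusted p under 0.05. BBC3 (1.43) and PMAIP1 (1.01) in HCC1806 stand away from 0, while the MDA-MB-468 estimates lie between -0.17 and 0.23.

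Whether the response differed between the lines was tested directly, as the effect in MDA-MB-468 minus that in HCC1806, which uses the control libraries of both. None of the 10 members passed, while 0.122% of all genes tested did. The difference was -1.22 for BBC3 (SE 0.32, unadjusted p = 0.0012, adjusted p = 0.198) and -0.78 for PMAIP1 (SE 0.22, unadjusted p = 0.0027, adjusted p = 0.254). These were the only 2 members under an unadjusted p of 0.05, which 8.39% of all genes reached. For BBC3 the answer turned on the method: its adjusted p was 0.0476 with DESeq2, 0.0124 with no filter on low counts and 0.0326 in the fit that blocks on replicate. PMAIP1 did not pass in any of these. A smaller effect in MDA-MB-468 is therefore not established for PMAIP1. For BBC3 it did not pass in the main edgeR model but passed in the alternatives named above, also fitted to all 12 libraries, so it is not settled. The fall of PRKRA was smaller there too (difference 0.87, SE 0.14, edgeR adjusted p = 0.0198), and its part in this was not tested.

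In the control libraries the lines differed in most of the family, as they did in most of all genes tested. Of the 10 members, 7 were higher and 1 lower in MDA-MB-468 controls than in HCC1806 controls, where 74.2% of all genes tested passed, 34.2% higher and 40.1% lower. The members' median log2 difference was 1.38, beside -0.262 over all genes. Line and control guide cannot be told apart in this comparison, and it shares its libraries with the comparisons above.

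The death side was higher in MDA-MB-468 for BID (96.1 ± 1.45 against 31.7 ± 1.07 CPM, log2 difference 1.60, adjusted p = 1.58e-10) and BCL2L11 (60.0 ± 4.23 against 20.0 ± 4.19 CPM, 1.59, adjusted p = 8.1e-08). BAK1 was higher too (48.9 ± 1.73 against 17.8 ± 2.51 CPM, 1.46, adjusted p = 4.88e-07), as was PMAIP1 (11.2 ± 0.883 against 4.53 ± 0.756 CPM, 1.31, adjusted p = 1.07e-06). On the survival side, MCL1 (275.2 ± 9.38 against 92.1 ± 17.5 CPM, 1.58, adjusted p = 1.3e-06) and BCL2 (16.0 ± 0.305 against 5.23 ± 1.06 CPM, 1.61, adjusted p = 1.21e-07) were higher by a similar amount. Genes of both sides were thus higher in MDA-MB-468, by 2.48-fold to 3.05-fold for these 6.

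BIK was the member that was lower in MDA-MB-468 (7.49 ± 0.493 against 11.7 ± 0.997 CPM, -0.64, adjusted p = 0.00122). BAX (39.3 against 38.5 CPM, 0.03, adjusted p = 0.851) and BCL2L1 (58.8 against 68.7 CPM, -0.22, adjusted p = 0.143) did not pass, though BCL2L1 passed with library size only (-0.47, adjusted p = 0.00119) and with a filter at a mean of 50 counts (-0.54, adjusted p = 0.00121). BBC3 passed narrowly (0.53, SE 0.23, adjusted p = 0.0429), with overlapping libraries. Leaving out a library ended the call in 4 of 12 cases: to 0.34 without HCC1806 control replicate 1 (adjusted p = 0.184), to 0.32 without MDA-MB-468 control replicate 1 (adjusted p = 0.238), and also without HCC1806 control replicate 2 (adjusted p = 0.0831) or MDA-MB-468 sgPACT-2 replicate 2. The BBC3 call was also lost with DESeq2 (adjusted p = 0.0518), RLE size factors (0.0587), library size only (0.28, adjusted p = 0.305) and when genes averaging under 50 counts were removed (0.22, adjusted p = 0.404).

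Within MDA-MB-468 controls the order per kb of exon was MCL1 (63.0 ± 2.15 CPM per kb), BAK1 (22.1 ± 0.781), BID (21.6 ± 0.327), BCL2L1 (17.7 ± 1.42), BAX (15.2 ± 0.265), BCL2L11 (9.02 ± 0.635), BIK (7.86 ± 0.517), PMAIP1 (5.03 ± 0.395), BBC3 (1.89 ± 0.457) and BCL2 (1.36 ± 0.0259). BAK1 and BID were not separated by their libraries. MCL1 was highest and BCL2 lowest in both lines, whereas BAK1 and BID stood above BCL2L1 in MDA-MB-468 and below it in HCC1806. PMAIP1 in MDA-MB-468 controls was already above its level in depleted HCC1806 (4.08 ± 0.195 CPM per kb), while BBC3 was below its own there (3.52 ± 0.455).

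Genes around the 10 members were read from 5 lists, whose counts in HCC1806 stand beside 1.16% of all genes tested that passed as higher and 1.32% as lower. The lists were chosen with earlier results of these data known, so their counts and medians are descriptions. Each list gene that passed in HCC1806 also did so in the same direction with DESeq2 and with the replicate block. Only TRIB3 passed in HCC1806 alone. Of 13 other BCL2 family genes, 11 were tested, and 1 rose and none fell in HCC1806 (median log2 fold change -0.05, beside 0.008 over all genes). The riser was HRK, a BH3-only gene best known from neurons, at 1.00, 2.37 and 2.75 CPM in controls and 2.55, 5.37 and 7.08 CPM after depletion. Its groups overlapped and its call was marginal (1.31, SE 0.34, adjusted p = 0.0483), lost in HCC1806 alone (adjusted p = 0.269); with 1 library omitted it passed in 1 of 12 cases, without depleted replicate 1 (1.61, adjusted p = 0.00142). BCL2A1 and BCL2L10 had too few counts to be tested.

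Of 19 genes of the mitochondrial apoptosis machinery, from APAF1 and cytochrome c to the caspases and their inhibitors, none rose and 2 fell in HCC1806 (median -0.13). BIRC5, encoding survivin, a mitotic protein and caspase inhibitor, was at 72.2, 61.9 and 61.6 CPM in controls and 50.5, 47.3 and 40.6 CPM after depletion (-0.50, SE 0.12, adjusted p = 0.0355). VDAC3, a channel of the outer membrane, went from 36.4, 32.9 and 32.5 to 26.5, 23.2 and 23.9 CPM (-0.47, SE 0.10, adjusted p = 0.0244). Neither is a caspase or a pore-forming effector, and both lost the call in HCC1806 alone (adjusted p = 0.183 and 0.19). With 1 library omitted, BIRC5 passed in 5 of 12 cases and was at an adjusted p of 0.139 without control replicate 1, while VDAC3 passed in 9 and was at 0.0813 without depleted replicate 2. VDAC1 passed as lower with the replicate block.

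In the death receptor arm that leads to BID, 11 genes were tested, 1 of which fell in HCC1806 (median 0.09). This was TNFRSF1A, the main receptor for TNF, at 199.8, 193.9 and 196.6 CPM in controls and 149.4, 160.0 and 159.2 CPM after depletion (-0.33, SE 0.08, adjusted p = 0.0441). The libraries did not overlap, but the call was kept in 1 of 12 cases with a library omitted (adjusted p = 0.0397 without depleted replicate 1) and not in HCC1806 alone (adjusted p = 0.294). It also ended with library size only (-0.21, adjusted p = 0.23). TNFRSF10B, a receptor for TRAIL, was at 74.5, 65.6 and 60.5 CPM in controls and 92.2, 90.5 and 82.0 CPM after depletion, just short of the threshold (0.40, SE 0.10, adjusted p = 0.0508); DESeq2 and the fit with a replicate block both called it higher. Among 8 genes of MCL1 turnover and BH3-only binding, YWHAZ, a 14-3-3 protein that can hold phosphorylated BAD, fell from 563.3, 498.6 and 445.5 to 396.7, 360.1 and 351.4 CPM (-0.44, SE 0.11, adjusted p = 0.0326; 0.214 in HCC1806 alone, 0.105 without control replicate 1), and the other 7 did not pass.

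Transcription and stress regulators known to act on BH3-only genes held 3 risers and no faller among 15 in HCC1806 (median 0.26, beside 0.008 over all genes). As this list was chosen with earlier results of these data known, its count and median are not separate evidence. TRIB3, a pseudokinase induced by ATF4 and CHOP, was at 35.9, 37.4 and 42.0 CPM in controls and 79.1, 77.6 and 76.8 CPM after depletion (1.02, SE 0.11, adjusted p = 4.37e-05), and passed in HCC1806 alone (adjusted p = 0.00431). DDIT3, encoding CHOP, a factor of the integrated stress response that is known to act on BH3-only genes, was at 14.6, 16.3 and 19.2 CPM against 29.1, 26.0 and 32.1 CPM (0.80, SE 0.13, adjusted p = 0.00414; 0.0607 in HCC1806 alone). NFKB1 was at 43.4, 37.8 and 37.7 CPM against 71.6, 52.0 and 55.5 CPM (0.59, SE 0.12, adjusted p = 0.0179; 0.141 in HCC1806 alone). All depleted libraries were above all controls for these 3 genes, and NFKB1 lost its call without control replicate 2 or 3 (adjusted p = 0.0556 and 0.0518). With the replicate block, FOXO3 and JUN were among the genes that passed as well. DDIT3 overlaps MARS and MBD6 on the opposite strand, so its counts are uncertain.

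In MDA-MB-468 no gene of the 5 lists passed in the main edgeR model. DDIT3 was nevertheless at 10.2, 9.25 and 11.4 CPM in controls and 16.8, 16.4 and 15.6 CPM with sgPACT-2, without overlap (0.66, SE 0.13, adjusted p = 0.0611). TRIB3 was at 449.6, 411.5 and 428.9 against 687.6, 531.3 and 632.5 CPM, also without overlap (0.52, SE 0.10, adjusted p = 0.0553). Both passed with DESeq2 (adjusted p = 0.00168 and 0.00224) and in MDA-MB-468 alone (4.06e-04 and 1.31e-05). NFKB1 and TNFRSF10B, whose libraries did not overlap either, passed in MDA-MB-468 alone but not with DESeq2 (log2 fold changes of 0.28 and 0.41, adjusted p = 0.881 and 0.223 in the shared model). The differences between the lines in these genes did not pass either, with the exception of TRIB3 under the replicate block (-0.51, adjusted p = 0.0476).

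**Figure D5:**
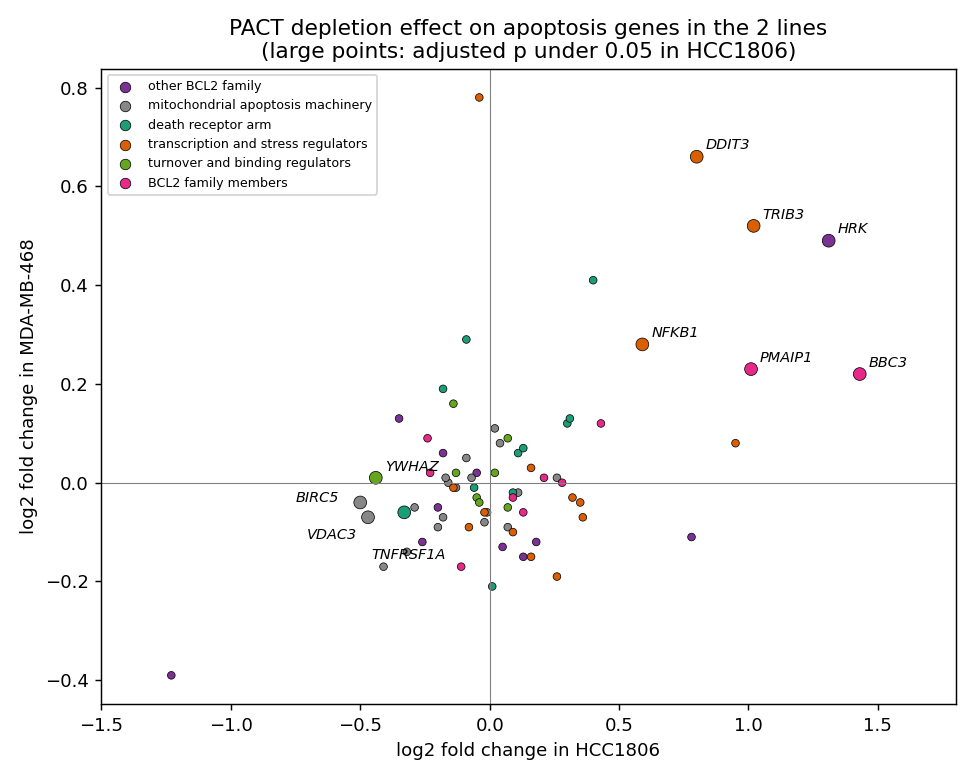
Log2 fold change, sgPACT-2 against control guide, of the 10 members and the genes of 5 lists in HCC1806 (horizontal) and MDA-MB-468 (vertical); large named points passed the test in HCC1806. BBC3 and PMAIP1 lie far to the right at 0.22 and 0.23 on the vertical axis, and DDIT3 (0.80 and 0.66) and TRIB3 (1.02 and 0.52) lie to the upper right.

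The genes whose pattern was most like that of BBC3 were found by the correlation of log2 CPM, centred within each line, over the 12 libraries, among 15917 genes averaging 50 or more counts. As points of 1 line share guide and culture, the coefficients are descriptions. The difference between the HCC1806 groups enters the correlation, so changes in HCC1806 of the genes found this way are not separate evidence. The closest were SGPP2 (r = 0.961), GPT2 (0.96), PPM1E (0.959), ZSWIM4 (0.957) and CHAC1 (0.953). CHAC1, a glutathione-degrading enzyme and known target of ATF4 and CHOP, went from 5.01 ± 2.35 to 20.2 ± 1.66 CPM in HCC1806 (2.01, adjusted p = 5.78e-05). GPT2, a mitochondrial alanine aminotransferase, went from 15.1 ± 3.35 to 26.5 ± 2.73 CPM (0.81, adjusted p = 0.0055). SGPP2, a sphingosine phosphate phosphatase, went from 0.773 ± 0.498 to 3.55 ± 0.53 CPM (2.20, adjusted p = 0.00159). PPM1E passed as well (1.60, adjusted p = 0.00275), and ZSWIM4 did not (0.39, adjusted p = 0.0646).

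PMAIP1 was at r = 0.765 with BBC3, behind 414 other genes. The other members ranged from 0.567 for BCL2L11 to -0.637 for BID, with -0.626 for BIK, -0.497 for BCL2, 0.366 for MCL1, 0.206 for BCL2L1, -0.0315 for BAX and -0.111 for BAK1. Of the 9 other members, PMAIP1 was thus the closest to BBC3 in pattern. It was also the other member that passed in HCC1806, and that group difference enters the correlation, so its place is not separate evidence.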

How the data were processed

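Raw counts per gene were deposited by the authors as 1 table with a column for each of 12 libraries. Trimmomatic 0.36, STAR 2.5.2b, featureCounts of Subread 1.5.2 and GRCh38 are named in the submitters' processing notes; strand setting and annotation release are not given in the sources used here. Names, coordinates and exon lengths came from GENCODE 29. Genes with no name held 0.0284% of counts.

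Genes passing edgeR's filterByExpr (27029) were scaled by TMM and fitted with edgeR 4.0.16 in R 4.3.3 as 1 quasi-likelihood model of 4 groups, two-sided. DESeq2 1.42.0 was an alternative. Steps were tested on simulated data. The members and lists were chosen with earlier results of these data known. All 10 members are named, plus PRKRA, list genes that passed (at most 4 in each direction), and the 5 genes most like BBC3 and BCL2L1. Alternatives are given in the closing section; no library was left out. The result of 1 list gene is not reported here.

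The main model had no pairing. Replicate numbers entered only the alternative with a replicate block, for both lines. Pairing was considered because deviations from group means correlated above 0.1 in each same-numbered pair of HCC1806 (r = 0.479, 0.294 and 0.152). This is only a hint from the data, since the labels do not say what a number shares. Control replicate 2 was closer to depleted replicate 3 (r = 0.351) than to depleted replicate 2, so the pairing is uncertain.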

Additional observations from a re-analysis of the deposited data

Results flagged for a closer look

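PRKRA, the targeted gene, responded differently in the 2 lines by the test of the difference itself (MDA-MB-468 effect minus HCC1806 effect 0.87 on the log2 scale, SE 0.14, edgeR adjusted p = 0.0198). It fell from 77.8 ± 5.3 to 36.9 ± 0.774 CPM in HCC1806 and was at 44.7 ± 3.12 and 38.8 ± 3.09 CPM in MDA-MB-468 (SD, n = 3). With 1 library omitted, the difference passed in 5 of 12 cases, and its adjusted p reached 0.0931 in the others.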

How the results depend on the processing

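Of 1455 values of single genes under the alternatives, 1304 kept direction and side of the threshold, 87 lost and 29 gained a call, and 35 changed sign, however small the value. The count of members past the threshold in HCC1806 was 2 with each library left out and 1 with each line alone, where BBC3 remained, and 3 with no filter on low counts (MCL1 added). The interaction count was 0 with each library left out, and 1 (BBC3) with DESeq2, with no filter on low counts and with the replicate block. It was 0 throughout in MDA-MB-468 and 7 to 8 between the control lines with a library left out. Over fits without 1 library, BAK1 ranged from -0.19 to 0.25 in HCC1806 and from -0.27 to 0.17 in the interaction, and MCL1 from -0.49 to 0.08 in the interaction. BCL2 ranged from -0.24 to 0.05 in HCC1806 and from -0.20 to 0.09 in the interaction. In MDA-MB-468 the ranges that crossed 0 were -0.03 to 0.06 for BCL2L11, -0.04 to 0.19 for BIK, -0.02 to 0.09 for BID, -0.19 to 0.01 for BAX, -0.09 to 0.04 for BAK1, -0.07 to 0.08 for BCL2L1, -0.11 to 0.06 for BIRC5 and -0.04 to 0.09 for YWHAZ. BAX between the control lines (-0.01 to 0.18 with a library omitted) went to -0.01 with DESeq2 and with RLE size factors, -0.21 with library size only and -0.28 with a filter at a mean of 50 counts. With library size only, BCL2 in HCC1806 and BAK1 and BIRC5 in MDA-MB-468 were each at 0.02. Library size only moved the median of all genes by 0.12 in HCC1806 and by -0.25 between the control lines; the cause was not tested. Over all genes, calls in HCC1806 went from 672 to 74 in that line alone, 1098 with DESeq2, 1351 without filter and 1947 with the replicate block; in MDA-MB-468 they went from 46 to 323, 111 (DESeq2) and 102 (block). Same-numbered MDA-MB-468 libraries had correlations of 0.116, 0.075 and 0.106, each library being closest to its own number. The main model took neither line as paired, while the replicate block held replicate terms for both lines. A block could not be fitted to the control-line comparison, nor a line alone to it or the interaction. BBC3 and PMAIP1 rest on few counts, which limits their precision.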

Other observations

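The genes most like BCL2L1 over the 12 libraries, centred within line, were EHD4 (r = 0.959), AAGAB (0.951), PPP6R1 (0.944), UAP1 (0.941) and IL4R (0.94). None of these 5 passed the edgeR test of depletion in either line. MCL1, BCL2L1 and BAK1 shared their highest HCC1806 value in depleted replicate 1, at 179.4, 97.2 and 25.7 CPM. Among the list genes, TP63, a transcription factor of basal epithelium, was at 233.9 to 267.8 CPM in HCC1806 controls and at 0.426 to 0.849 CPM in MDA-MB-468 controls. ATF4, which acts upstream of DDIT3 and TRIB3 and is largely controlled by translation, had log2 fold changes of -0.02 in HCC1806 and -0.06 in MDA-MB-468.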
